A study of Drosophila melanogaster with 23 samples.

Results

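Prosbeta4R2 and Hsp60B are testis relatives of genes that every cell uses. Prosbeta4R2 (Entrez 33451) is a relative of the proteasome subunit gene Prosbeta4, and Hsp60B (Entrez 48572) is a relative of the mitochondrial chaperonin gene Hsp60A. Both lie on chromosome arm 2L of Drosophila melanogaster. They were found as the features whose symbol in the platform annotation was 1 of these names. Each gene had 1 feature, so the pair makes up 2 of the 6101 features of the array. Of all features, 1943 carried 1 gene symbol, 67 carried several and 4091 carried none.

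The proteasome is a barrel-shaped protease that breaks down proteins marked with ubiquitin, and its rings are built of alpha and beta subunits. The beta4 subunit is a structural part of the inner rings and carries no protease active site. Chaperonins of the Hsp60 family form barrels in mitochondria in which other proteins fold. In the Drosophila male germ line, several subunits of the proteasome have relatives made mainly in the testis, and spermatids rebuild their mitochondria into a long derivative beside the flagellum. Hsp60B is known from mutants as needed when each spermatid is wrapped in its own membrane, the step called individualization. The role of Prosbeta4R2 in the testis is less well described.

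RNA of whole adult males was compared directly between strains on spotted cDNA arrays with 2 colours. The strains named for Zimbabwe were Zimbabwe29, Zimbabwe30, Zimbabwe2 and Zimbabwe53, and the other 4 were Oregon R, Canton S, Hikone R and St Louis. The labels name no treatment of any strain. All males were reared at 25 °C and aged without females for 3 to 4 days, and the RNA of each strain was a single pool of extractions from 8 to 12 flies each. The 23 arrays comprised 21 that set 2 strains against each other, in 13 strain pairs, and 2 that held a single strain in both channels. In 8 of the strain pairs a second array exchanged the channels, while the other 5 pairs had a single array. Since a strain had 1 pool, errors and p-values measure how arrays scattered and leave out differences between flies of a strain. In whole flies, less testis tissue and less RNA per testis cell cannot be told apart.

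The values are log2 ratios after each array was centred on its median. The deposited ratios state no base and were read as log10, and the numerator channel is not stated. A sign below is therefore that of the first-named minus the second-named strain with the labelled channel 1 on top, as deposited, and which strain had more RNA is not settled. Ratios carry no level, so whether testis RNA was present could not be checked from markers. Spot intensities were not used here, so how far each spot stood above its background is not known, and precision rests on how many arrays carried a strain. An array gave values for 3272 to 4987 features, and the SD of log2 ratios on arrays of different strains ranged from 0.28 to 0.52 with a median of 0.39. It was 0.17 for Canton S against itself and 0.14 for Zimbabwe53 against itself.

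Both genes were measured on all 21 arrays of different strains. Prosbeta4R2 was also read on both arrays of a strain against itself, with log2 ratios of 0.17 for Canton S and -0.15 for Zimbabwe53. Each of these is about as large as the SD of all features on its array. Hsp60B had a log2 ratio of 0.12 for Canton S against itself and no value for Zimbabwe53 against itself.

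In Prosbeta4R2 the largest ratios came from Canton S against Zimbabwe29, and all 5 pairs beyond 1.5-fold held Canton S, Oregon R or Zimbabwe29. Canton S against Zimbabwe29 read log2 -1.08 on 1 array and -1.46 on the array with the channels exchanged, and Hikone R against Zimbabwe29 read -0.84 on its only array. Canton S against Zimbabwe30 read -0.996 and -0.588. Oregon R also stood apart from the Zimbabwe strains it shared arrays with. Oregon R against Zimbabwe53 read log2 -0.62 and -1.01, and Oregon R against Zimbabwe2 read -0.69. Zimbabwe30 against Zimbabwe53 read 0.63 and 0.44.

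The other strain pairs gave Prosbeta4R2 ratios that were smaller in size on average over a pair's arrays, though not on every array. Canton S against Hikone R read log2 -0.63 and -0.20, and Canton S against Zimbabwe2 read -0.43. St Louis against Zimbabwe30 read -0.29, and Zimbabwe2 against Zimbabwe53 read 0.28. The ratios nearest to 0 came from 3 strain pairs and lay within or close to what an array of a strain against itself gave. These were Canton S against Oregon R at log2 0.20 and 0.15, St Louis against Zimbabwe53 at 0.13 and 0.15, and Canton S against Zimbabwe53 at -0.11 and -0.06.

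In Hsp60B the largest ratios came from Zimbabwe53 with St Louis and with Canton S, and those of Zimbabwe53 with other partners were smaller. St Louis against Zimbabwe53 read log2 0.72 and 1.22, and Canton S against Zimbabwe53 read 0.95 and 0.63. Zimbabwe30 against Zimbabwe53 read 0.03 and 0.40. Oregon R against Zimbabwe53 lay on the other side of 0 with log2 -0.31 and -0.02, and Zimbabwe2 against Zimbabwe53 read -0.06.

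Away from Zimbabwe53, Hsp60B differed most between Canton S and both Hikone R and Zimbabwe29. Canton S against Hikone R read log2 -0.71 and -0.39, and Canton S against Zimbabwe29 read -0.69 and -0.48. Canton S against Zimbabwe2 read -0.42, and Canton S against Zimbabwe30 read -0.0048 and -0.43, so that 1 of its arrays was close to 0. Canton S against Oregon R, with log2 0.20 and 0.22, was the pair whose arrays lay closest together. The 3 remaining pairs had 1 array each, with log2 -0.39 for Oregon R against Zimbabwe2, 0.33 for St Louis against Zimbabwe30 and 0.28 for Hikone R against Zimbabwe29.

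Before the dye offset described below was removed, arrays of a strain pair repeated each other in sign. In all 8 pairs with exchanged channels, both arrays put Prosbeta4R2 on the same side of 0, and the same held for Hsp60B. The share of all features that did so was not counted. The median gap between the arrays of a pair was 0.283 log2 for Prosbeta4R2 and 0.324 log2 for Hsp60B, against 0.221 log2 over all features. The largest gap was 0.435 log2 for Prosbeta4R2 and 0.500 log2 for Hsp60B. A part of the ratio that follows the dye and not the strain was estimated from these 8 pairs and removed. This dye offset was -0.032 log2 for Prosbeta4R2 and 0.106 log2 for Hsp60B. The first Zimbabwe30 against Zimbabwe53 array read 0.03 log2 for Hsp60B with Zimbabwe30 in channel 1, which is less than the offset. With the offset removed, the arrays of that pair lay on opposite sides of 0 for Hsp60B. The mean of a pair's arrays, after this step, is called the pair value below. It was beyond 1.5-fold in 5 of 13 pairs for Prosbeta4R2 and in 3 of 13 for Hsp60B.

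**Figure D1:**
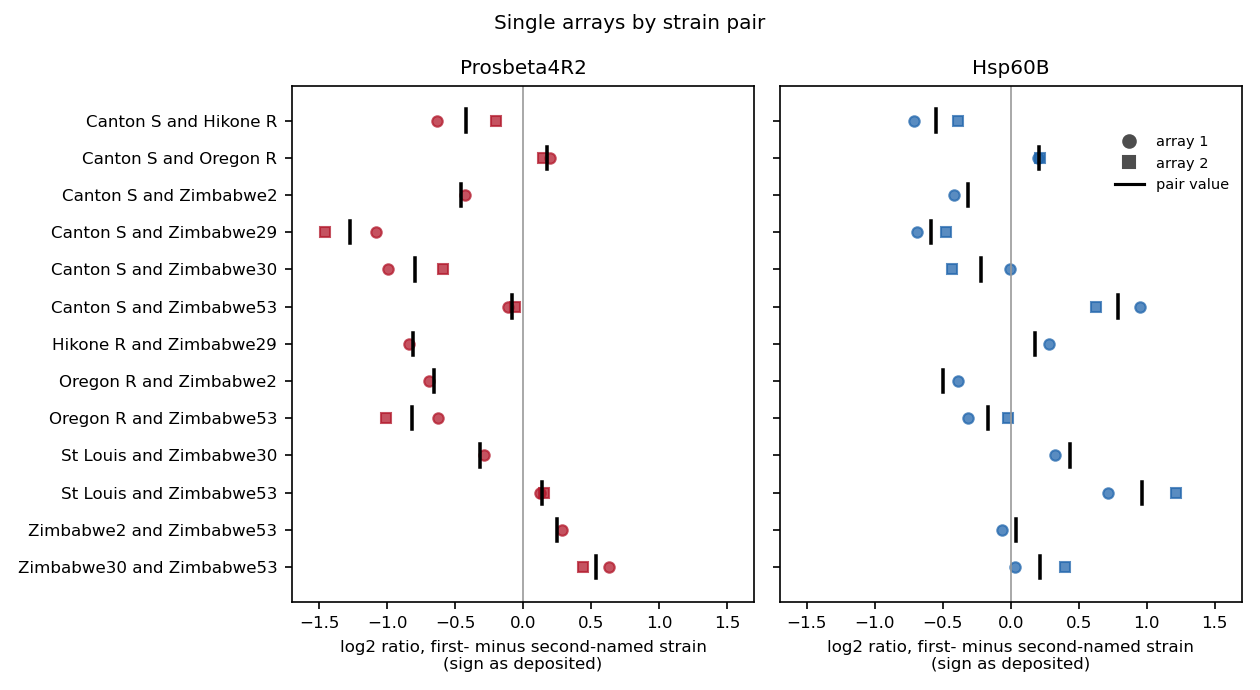
Single-array log2 ratios (points, first-named minus second-named strain, before removal of the dye offset) and pair values (bars, after it) of Prosbeta4R2 and Hsp60B in the 13 strain pairs. Both arrays of each of the 8 channel-exchanged pairs lie on the same side of 0 in both genes, and Canton S against Zimbabwe53 is near 0 for Prosbeta4R2 but at 0.95 and 0.63 for Hsp60B.

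The first question was how the genes varied among the 8 strains. A level for each strain, relative to the mean of the 8, was obtained from the 13 pair values by weighted least squares. Prosbeta4R2 spanned 1.60 ± 0.15 log2 (SE), a fold of 3.02, between Zimbabwe29 and Oregon R, and passed the moderated F test of limma (adjusted p = 5.8e-06). Hsp60B spanned 0.98 ± 0.23 log2 (SE), a fold of 1.97, between Hikone R and Oregon R, and passed the same test (adjusted p = 0.0032). Its ends were less settled: they were kept in 13 of 21 settings that left out 1 array. The F test called 45.2% of the 4841 features fitted, so passing it is not particular to these genes. Their ranges lay above the median range of all features, 0.47 log2, and 143 features had a larger range than Prosbeta4R2 and 471 a larger one than Hsp60B. If the deposited values were natural logs, the folds would be 1.62 for Prosbeta4R2 and 1.34 for Hsp60B, and if they were log2, 1.40 and 1.23. With each feature's own variance in place of moderated ones, Hsp60B no longer passed (adjusted p = 0.103), while Prosbeta4R2 did.

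Zimbabwe29 stood at one end of the Prosbeta4R2 levels and Oregon R at the other. The levels were 0.85 ± 0.11 for Zimbabwe29, 0.38 ± 0.08 for Zimbabwe30 and 0.02 ± 0.10 for Zimbabwe2 (log2 ± SE). They were 0.02 ± 0.11 for Hikone R, 0.02 ± 0.11 for St Louis and -0.14 ± 0.06 for Zimbabwe53. Canton S lay at -0.41 ± 0.05 and Oregon R at -0.74 ± 0.08. Of the 7 neighbours in this order, only Canton S and Oregon R differed beyond the error between arrays (adjusted p = 0.041), with Zimbabwe29 and Zimbabwe30 at adjusted p = 0.063 and Zimbabwe53 and Canton S at 0.070. The fitted difference of Canton S and Oregon R was 0.336 log2 and draws on other strains too. Their direct pair value was smaller, 0.175 log2, from arrays close to those of a strain against itself.

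Hsp60B levels fell into less distinct steps. Hikone R at 0.46 ± 0.16, St Louis at 0.45 ± 0.16 and Zimbabwe29 at 0.39 ± 0.16 were close to each other (log2 ± SE). Zimbabwe30 at -0.07 ± 0.12, Zimbabwe2 at -0.10 ± 0.15 and Canton S at -0.14 ± 0.08 followed. Zimbabwe53 at -0.48 ± 0.09 and Oregon R at -0.52 ± 0.12 were at the other end. No neighbours in this order passed the test, and the lowest adjusted p among them was 0.123, between Canton S and Zimbabwe53. The errors differ with the number of arrays, which was 11 for Canton S, 9 for Zimbabwe53, 5 each for Oregon R and Zimbabwe30, and 3 for each other strain.

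**Figure D2:**
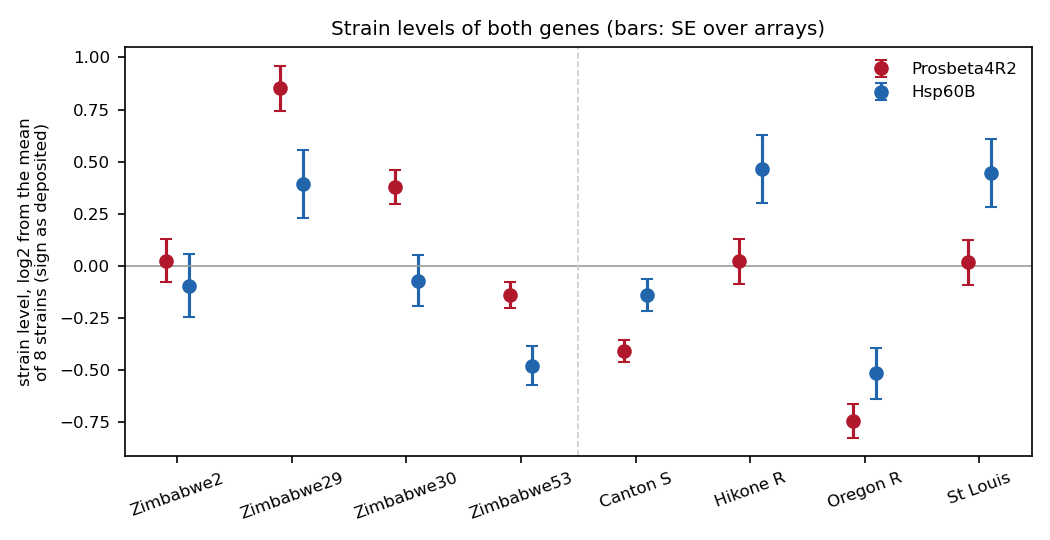
Fitted log2 levels of Prosbeta4R2 and Hsp60B in the 8 strains, relative to the mean of the strains, with bars of 1 SE over arrays. Prosbeta4R2 runs from 0.85 in Zimbabwe29 to -0.74 in Oregon R, and Hsp60B from 0.46 in Hikone R to -0.52 in Oregon R.

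Each of the 28 possible strain pairs was then tested from the same fit, with 1 adjustment over all features and pairs together. Of all these tests, 11.6% were called. Prosbeta4R2 was called in 16 of 28 pairs and Hsp60B in 7 of 28. As many called pairs were seen in 3.35% of features for Prosbeta4R2 and in 19.5% for Hsp60B, and the median feature had 1. Oregon R was in 7 of the 16 Prosbeta4R2 pairs, Zimbabwe29 in 6 and Canton S in 5. The largest Prosbeta4R2 contrast after Zimbabwe29 against Oregon R was Canton S against Zimbabwe29 at log2 -1.26 ± 0.12 (SE, adjusted p = 8.0e-06), a pair hybridised directly. Oregon R against Zimbabwe30, which never shared an array, differed by log2 -1.12 ± 0.12 (SE, adjusted p = 4.3e-05).

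For Hsp60B, Hikone R, Oregon R and Zimbabwe53 were in 3 called pairs each, while Zimbabwe2 and Zimbabwe30 were in none. Its largest directly hybridised contrast was St Louis against Zimbabwe53 at log2 0.92 ± 0.17 (SE, adjusted p = 0.0029). Hikone R against Oregon R, at log2 0.98 ± 0.23 (SE, adjusted p = 0.013), rested on other strains in between. The count of 7 for Hsp60B moved with single arrays: it was 4 without the first Canton S against Zimbabwe29 array and 11 without the first Zimbabwe30 against Zimbabwe53 array. It was 0 with each feature's own variance. Pairs called for both genes numbered 5, and the sign was the same in all 5. They were Canton S against Hikone R, Hikone R against Oregon R, Oregon R against St Louis, Oregon R against Zimbabwe29, and Zimbabwe29 against Zimbabwe53. These pairs share strains and come from the same fitted levels, so they are not 5 separate agreements. Most of them held Oregon R, which lay at the same end of the levels in both genes. How many pairs would be called for both genes by chance was not tested.

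A design with loops allows a direct ratio to be set against the ratio through another strain. There were 7 such triangles of strains. Prosbeta4R2 closed them to a median of 0.125 log2 and Hsp60B to a median of 0.319 log2, against 0.196 log2 over all features. Prosbeta4R2 was furthest off in Canton S, Oregon R and Zimbabwe53, where Canton S against Zimbabwe53 was -0.08 log2 directly and -0.64 log2 through Oregon R. For Hsp60B the same strain pair was the one that stood apart. Its direct value was 0.79 log2, while it was 0.04 through Oregon R, -0.27 through Zimbabwe2 and -0.003 through Zimbabwe30.

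The Canton S against Zimbabwe53 value of Hsp60B was thus repeated by both of its arrays and by none of the 3 routes around it. From the other 12 pairs its fitted value was -0.005 ± 0.10 log2 (SE), a gap of 0.794 log2 to the direct value. A larger gap at this pair was seen in 1.39% of the 4662 features that allowed the comparison, and the median gap was 0.165 log2. For Prosbeta4R2 the fitted value was -0.40 ± 0.10 log2 (SE) against a direct -0.08, a gap of 0.320 log2 that 20.5% of features exceeded. The testis genes janB, ocn and f-cup, introduced below, had gaps of 0.263, 0.229 and 0.400 log2 on the same side. Over all 17 features of janB and ocn the gap ran from -0.28 to 0.76 log2 and was on that side in 12. Over all features this pair held the largest residual of the fit in 14.4%. Only Hikone R against Zimbabwe29 at 14.9% and Zimbabwe2 against Zimbabwe53 at 15.1% held more, with 1 array each. Among pairs with exchanged channels its share was the largest, and the next was 9.89% for Oregon R against Zimbabwe53. The cause of the gap was not tested.

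Leaving out both Canton S against Zimbabwe53 arrays brought the residual SD of Hsp60B to 0.165 log2, against 0.375 with them. Canton S and Zimbabwe53 then lay side by side for Hsp60B, at -0.29 ± 0.06 and -0.28 ± 0.07 log2 (SE). The F test gave an adjusted p of 6.9e-05 for Hsp60B in that setting, and 13 of 28 pairs were called, against 7 with the arrays. For Prosbeta4R2 it called 17 pairs, and Canton S against Zimbabwe53 became 1 of them, at log2 -0.40 ± 0.10 (SE, adjusted p = 0.019). This setting was chosen after the direct values had been seen. Calls over all features also moved with these arrays. Of all pair tests, 14.3% were called without the first array alone and 8.91% without the second alone, against 11.6% with both.

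**Figure D3:**
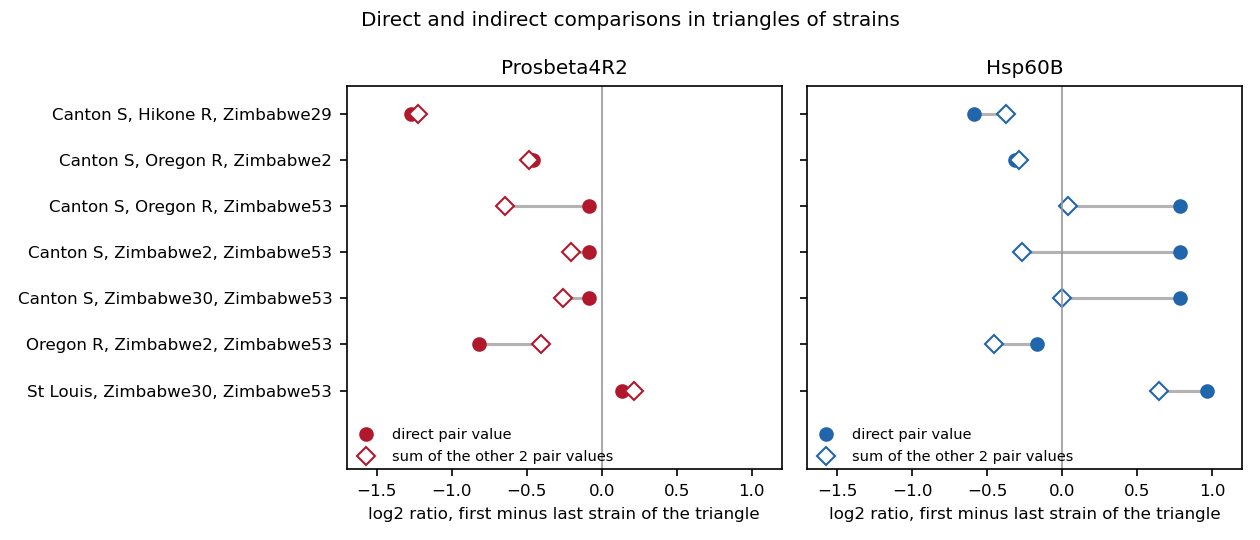
Log2 ratio of the first-named to the last-named strain of each of the 7 triangles, for Prosbeta4R2 and Hsp60B, from the direct pair value (filled) and from the sum of the 2 pairs through the strain named in the middle (open). For Hsp60B the filled and open points of the 3 triangles that run from Canton S to Zimbabwe53 lie far apart, at 0.79 against -0.27 to 0.04.

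The genes were then compared with each other. Prosbeta4R2 and Hsp60B lay on the same side of 0 in 10 of 13 pair values and in 6 of 8 strain levels. Before the dye offset was removed, they did so on 16 of 21 arrays. Pair values on opposite sides were seen for Canton S against Zimbabwe53, Hikone R against Zimbabwe29, and St Louis against Zimbabwe30. For Zimbabwe2 against Zimbabwe53, counted as the same side, the Hsp60B pair value was 0.04 log2 but its only array read -0.06. The side of Hsp60B in that pair is not settled. Among the strain levels, Hikone R, St Louis and Zimbabwe2 were within 1 SE of 0 for Prosbeta4R2, as were Zimbabwe30 and Zimbabwe2 for Hsp60B. The side of these levels is not settled. Prosbeta4R2 had the pair value of larger size in 8 of 13 pairs. As a description, the cosine of their 13 pair values was 0.45, and it was 0.49 from the first and 0.45 from the second arrays of the 8 exchanged pairs. The cosine is the correlation without centring, 1 for proportional profiles. Over the 8 strain levels Pearson's r was 0.63 and Spearman's rho 0.62, and the values share arrays and RNA pools. Among all 4840 other features, 15.3% were more like Prosbeta4R2 than Hsp60B was, and 16.0% were more like Hsp60B than Prosbeta4R2 was.

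Whether the profiles differ was tested on the difference of the genes' ratios, Prosbeta4R2 minus Hsp60B, refitted in the same way. The difference of levels spanned 0.90 log2 between Zimbabwe29 and Hikone R and passed the moderated F test of limma (adjusted p = 1.7e-05). These strains were the ends in only 3 of 21 settings that left out 1 array, and in the others Zimbabwe30 or St Louis or both took their places. The test called 89.8% of features against Hsp60B, so a call is not particular to Prosbeta4R2. Hsp60B's strain differences and its scatter between arrays enter every such difference, and their parts in that share were not separated. On simulated tables the moderated test called more features than it should on average, and the share varied widely from table to table. Its p is therefore not reliable and may be too small. The adjusted p was 1.9e-04 when the moderated variances of both features were summed, which called 4512 of 4840 features. It was 0.064 with the ordinary variance of the difference, which called 139. The test asks only whether the profiles are identical in size and shape.

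The difference of levels is given here for each strain. Prosbeta4R2 minus Hsp60B was 0.12 ± 0.23 in Zimbabwe2, 0.46 ± 0.24 in Zimbabwe29, 0.45 ± 0.18 in Zimbabwe30 and 0.34 ± 0.14 in Zimbabwe53 (log2 ± SE). It was -0.27 ± 0.12 in Canton S, -0.44 ± 0.24 in Hikone R, -0.23 ± 0.18 in Oregon R and -0.43 ± 0.24 in St Louis. The 4 Zimbabwe strains lay above the 4 others with no overlap, though Zimbabwe2 was within 1 SE of 0. The same was true of 0.413% of features after Hsp60B was subtracted from each, and of 6.65% of features by themselves. The means were 0.34 ± 0.16 in Zimbabwe strains and -0.34 ± 0.11 in the others (SD, n = 4 strains each), a difference of 0.68 ± 0.34 log2 (SE). This difference did not pass limma over all features (adjusted p = 1.00). The SE and this p draw on features that all had Hsp60B subtracted, so they carry Hsp60B's own spread among strains. They do not measure the spread of this difference alone. An exact two-sided permutation gave p = 0.029, the smallest that 70 splits allow, which follows from the lack of overlap. The split by origin was picked out after the values had been seen, so this permutation is no test of it. It is a description.

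**Figure D4:**
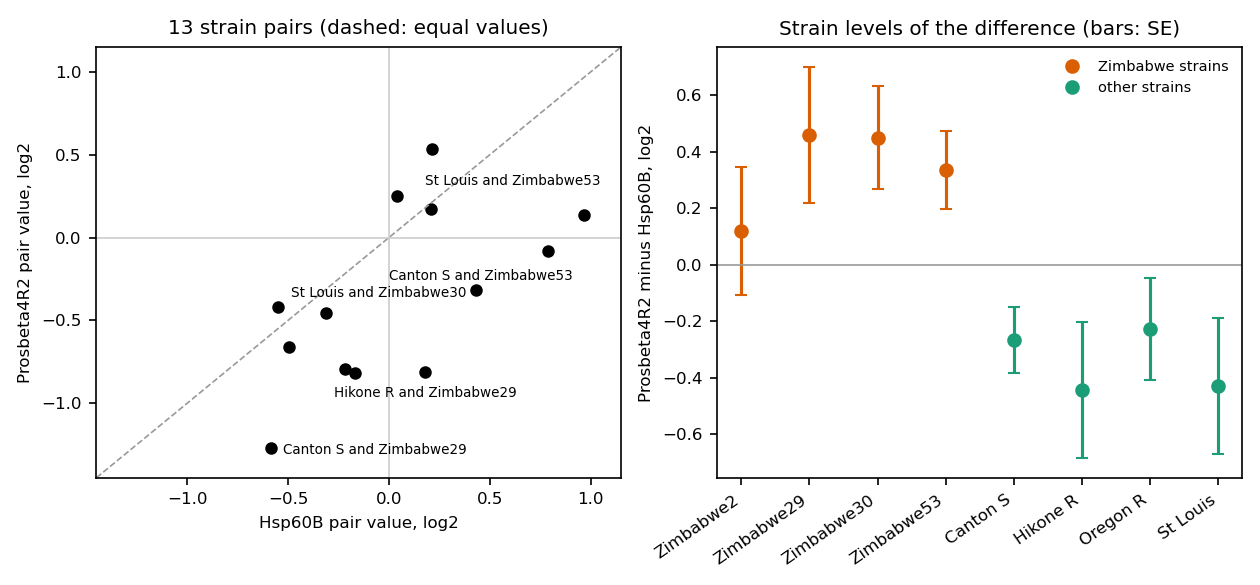
Left, pair values of Prosbeta4R2 against those of Hsp60B in log2, with the dashed line at equality and 5 of the 13 pairs named. Right, strain levels of Prosbeta4R2 minus Hsp60B in log2 with bars of 1 SE: the 4 Zimbabwe strains lie between 0.12 and 0.46 and the 4 others between -0.44 and -0.23.

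Origin was also tested for each gene by itself. Prosbeta4R2 averaged 0.28 ± 0.44 log2 in Zimbabwe strains and -0.28 ± 0.37 log2 in the others (SD, n = 4 strains each), and the groups overlapped. The difference of 0.56 ± 0.24 log2 (SE) did not pass limma (adjusted p = 0.44), and an exact two-sided permutation gave p = 0.114. Hsp60B averaged -0.06 ± 0.36 log2 in Zimbabwe strains and 0.06 ± 0.48 log2 in the others (SD, n = 4 strains each), and did not pass either (limma adjusted p = 0.90, exact two-sided permutation p = 0.714). Of all features, 0.248% passed the test of origin.

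The housekeeping relatives of these genes had no feature with their symbol alone. Neither Prosbeta4 nor Prosbeta4R1 had one, and neither did Hsp60A, Hsp60C or Hsp60D. So the relatives could not be set against the members. Prosbeta4R1 lies 2 genes from Prosbeta4R2 on 2L in Release 6, and a printed cDNA may bind RNA of a close relative. The odorant receptor gene Or23a overlaps Prosbeta4R2 in that annotation, and these arrays cannot tell overlapping genes apart. Eaat2, a glutamate transporter gene next to Hsp60B and the only named feature among the 2 nearest genes on each side of either member, spanned 0.36 log2 and did not pass the F test (adjusted p = 0.117).

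Of 37 listed genes of the general proteasome, 7 were fitted and 2 of them passed the F test, against 543 of 1409 named genes (38.5%). Rpn1, a scaffold subunit of the regulatory cap, differed 1.51-fold between Hikone R and Zimbabwe29 (adjusted p = 0.0099). Uch-L5, a deubiquitinase of the cap, differed 1.80-fold between Zimbabwe29 and Zimbabwe53 (adjusted p = 2.2e-04). The median range of the 7 genes was 0.36 log2, against 0.44 log2 for all named genes and 1.60 log2 for Prosbeta4R2. The fitted genes that did not pass were Pomp, Prosbeta7, Rpn2, Rpn6 and Rpt5. Of 14 listed testis proteasome relatives, Prosbeta4R2 alone had a named feature.

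Of 43 listed chaperone genes, 5 besides Hsp60B were fitted and 1 passed, against 38.5% of all named genes. Gp93, the Hsp90 relative of the endoplasmic reticulum, differed 1.33-fold between Canton S and Zimbabwe2 (adjusted p = 0.017). The cytosolic chaperonin subunit genes CCT2, CCT5 and CCT8, and Droj2, a J-domain co-chaperone gene, did not pass, with CCT2 at adjusted p = 0.055. The 5 genes had a median range of 0.31 log2, against 0.98 log2 for Hsp60B.

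Of 90 listed testis genes, 7 had a named feature and 5 were fitted, which includes both members. The other 3 passed the F test, against 38.5% of all named genes. They are too few to be set against that share. janB and ocn, testis-expressed genes that are neighbours and relatives of each other, differed 2.25-fold (adjusted p = 4.4e-05) and 1.94-fold (adjusted p = 6.2e-04). f-cup, a gene of the group transcribed late in spermatids, differed 1.44-fold (adjusted p = 0.045), and passed in 18 of 34 alternative settings. All 3 had Zimbabwe29 at one end, with Zimbabwe53 at the other for janB, Oregon R for ocn and Zimbabwe2 for f-cup.

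Hsp60B had profiles closer to these testis genes than Prosbeta4R2 did. The cosine with Prosbeta4R2 was 0.50 for janB, 0.40 for ocn and 0.12 for f-cup, and with Hsp60B it was 0.77, 0.76 and 0.67. The array holds 8 features of janB and 9 of ocn, and Hsp60B had the higher cosine in all 17. Over the features of janB it ran from 0.23 to 0.50 with Prosbeta4R2 and from 0.49 to 0.77 with Hsp60B. Over those of ocn it ran from 0.17 to 0.50 with Prosbeta4R2 and from 0.57 to 0.81 with Hsp60B. These features repeat janB and ocn, which are related neighbours, so they are not 17 separate cases. In Hsp60B, janB, ocn and f-cup the strains Zimbabwe29, Hikone R and St Louis lay on one side of the mean and the other 5 on the other, and Uch-L5 of the proteasome list showed the same split. Not all of these sides are settled. Hsp60B was within 1 SE of 0 in Zimbabwe30 (-0.07 ± 0.12 log2) and Zimbabwe2 (-0.10 ± 0.15 log2), and f-cup was at -0.003 log2 in Canton S. The share of all features with this split was not counted. In Prosbeta4R2, Zimbabwe30 at 0.38 ± 0.08 log2 (SE) lay on the side of Zimbabwe29, while Zimbabwe2 at 0.02 ± 0.10 log2 (SE) had no settled side. In janB, Zimbabwe30 and Zimbabwe2 stood at -0.26 and -0.14 log2. These cosines share arrays and RNA pools, and they and the splits were not tested. Of the markers of other tissues, Ebp, a gene of the ejaculatory bulb, was the 1 named feature among 31 listed genes of the male tract, and it was not fitted. None of 21 listed ovary and female genes had a named feature. The part of other tissues in the members' differences was not tested.

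**Figure D5:**
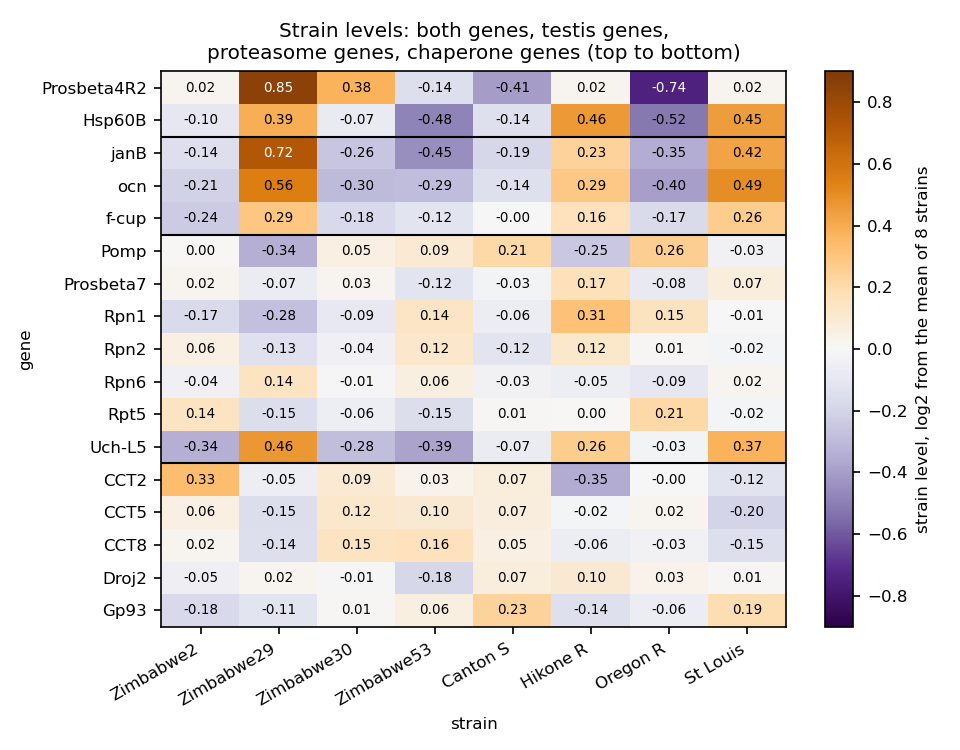
Fitted strain levels, in log2 from the mean of the 8 strains (colour and printed value), for both genes and for the fitted genes of the testis, proteasome and chaperone lists from top to bottom. In Hsp60B, janB, ocn and f-cup, Zimbabwe29, Hikone R and St Louis lie on one side, while in Prosbeta4R2 Hikone R and St Louis are at 0.02.

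The 5 named genes most like each member were listed by their cosine over at least 12 pairs. For Prosbeta4R2 they were Kebab (0.93), eIF3d2 (0.91), pigs (0.89), pch2 (0.80) and CG14657 (0.80). Kebab is a microtubule-binding protein of the kinetochore, eIF3d2 is a relative of a translation initiation factor subunit, pigs is a cytoskeletal linker of the Gas2 family, and pch2 is an ATPase known from meiosis. The first 4 of these genes passed the F test, with ranges of 0.98, 0.87, 0.62 and 0.66 log2, each between Zimbabwe29 and Oregon R as in Prosbeta4R2. CG14657 did not pass (adjusted p = 0.112). The genes were picked for likeness over the same pair values, so shared ends and calls follow in part from that choice. Of all named genes, 38.5% passed. An unnamed feature had the highest cosine of all, 0.98.

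For Hsp60B the 5 were ClpX (0.92), CG32450 (0.91), IntS6 (0.90), AIF (0.89) and CG12769 (0.88). ClpX is the unfoldase of a mitochondrial protease, IntS6 is a subunit of the Integrator complex, and AIF is a mitochondrial flavoprotein. ClpX spanned 0.54 log2 and did not pass the F test (adjusted p = 0.053). CG32450, IntS6, AIF and CG12769 passed, with ranges of 0.81, 0.60, 0.88 and 0.57 log2, and all 5 genes had Zimbabwe53 at one end. The ends of Hsp60B itself were Hikone R and Oregon R, with Zimbabwe53 next to Oregon R. Here too, ends and calls follow in part from how the genes were picked. The cosines include Canton S against Zimbabwe53, the pair that stood apart for Hsp60B, and the list was not remade without it. None of the 5 was on the list for Prosbeta4R2, where the cosines of these genes ran from 0.13 to 0.42. For scale, the middle 90% of all features had cosines from -0.67 to 0.64 with Prosbeta4R2 and from -0.58 to 0.70 with Hsp60B.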

How the data were processed

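The authors deposited 1 table of log ratios between channels, with 6101 features and 23 arrays. The sources used here give neither its log base nor the scanner, spot filter or normalization. The deposited ratios were read as log10, and channel roles came from the labels. Log2 values had the median of their array taken off. Each feature's dye offset, taken over the 8 pairs with exchanged channels, was then removed, and the arrays of a pair were averaged with their signs matched. Least squares on the 13 pair values, weighted by arrays, gave the strain levels. Moderated variances came from limma 3.58.1 (R 4.3.3, prior degrees of freedom 7.55, residual 6 for both genes). Features needed at least 10 pairs and at least 3 complete exchanged pairs, which left 4841, of which 1503 were named, for 1409 genes. The Benjamini-Hochberg adjusted p, over all features fitted, had to be under 0.05. Origin was tested on the 8 strain levels with limma and, for single values, by an exact permutation over 70 splits.

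Where a gene had several features, it was represented by the feature measured on most arrays (at ties, by that of lowest residual SD). Named genes are both members, list genes that passed the F test (with those of the proteasome and chaperone lists that did not), and for each member the 5 genes of highest cosine. Chromosome arms and neighbours came from the RefSeq gene table of Release 6. The members and lists were chosen with earlier results of these data known. The steps were tested on simulated data, where the moderated test of the profile difference called too many features on average. Alternatives covered the log base, centring, scaling, the dye offset, single arrays, title stems as a block, weights, filters, variances, and leaving out each array. Centring by print block, leaving out both Canton S against Zimbabwe53 arrays, and summed variances were added after the data had been seen.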

Additional observations from a re-analysis of the deposited data

How the results depend on the processing

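Prosbeta4R2 kept the F test, and Zimbabwe29 and Oregon R as its ends, in all 34 alternatives, with a range of 1.497 to 1.71 log2 when 1 array was left out. Some alternatives could not have changed this for either gene. Another log base only rescales the values, so the F test and the ends stay as they are. Filters and ordinary variances leave the levels and ends of a gene unchanged. Hsp60B kept the F test in 33 of 34 (adjusted p from 6.9e-05 to 0.103), and lost it with ordinary variances, where its range was 0.98 log2. Hikone R and Oregon R stayed its ends in 13 of 21 settings that left out 1 array and in 10 of 13 others, and St Louis took the place of Hikone R, or Zimbabwe53 that of Oregon R, in the rest. Its 7 called strain pairs became 11 with single arrays and a dye term, 12 with title stems as a block, 0 with ordinary variances, 11 with print blocks centred and 13 without both Canton S against Zimbabwe53 arrays. They ran from 4 (without the first Canton S against Zimbabwe29 array) to 11 (without the first Zimbabwe30 against Zimbabwe53 array) when 1 array was left out. The share of all pair tests called moved as well, from 11.6% to 13.3% with title stems as a block and to 6.86% with ordinary variances. The Prosbeta4R2 count ran from 12 to 19. The profile difference of the genes was 0.90 log2 with ordinary variances and did not pass there (adjusted p = 0.064), and it passed in each other setting (adjusted p from 8.5e-12 to 6.1e-04). Zimbabwe29 and Hikone R were its ends in 3 of 21 settings that left out 1 array and in 10 of 15 others. The test of origin called neither gene in any alternative. The cosine of the genes ran from 0.40 to 0.53 when 1 array was left out and from 0.42 to 0.52 under other processing, and the centred correlation of the 8 strain levels in its place was 0.63. Weights, filters, the log base and variances do not enter it. Each gene had 1 feature, so no other could stand for it. Among the other genes that passed, Gp93 lost the F test in 4 of 34 settings, Rpn1 in 1, AIF in 3, CG12769 in 8 of 33, CG32450 in 1 and IntS6 in 1, the last without the first St Louis against Zimbabwe53 array. By replicate number, no paired analysis was possible because the labels give the arrays none. The title stems that arrays share entered as the block above.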
